A study of Homo sapiens with 5 samples.

Results

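The genes described here are 46 genes of mitosis and the spindle, taken by name from a list. No measured value is part of the rule, but the list was drawn up with earlier results of these data known. Affymetrix human Gene ST arrays measured them in 5 cultures of MCF12A, an immortal cell line of the human breast epithelium that does not form tumours, as 1 array per culture in 2 tables. A gene was used in a table where a probe there carried its symbol and no other. That held for 42 of the 46 genes in the table of 3 arrays and for 45 in the table of 2 arrays. In all, 41 were named in both tables, of 17651 genes so named.

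The table of 3 arrays held cells kept for 4 weeks in 2.5% ethanol, cells kept for 4 weeks in 1% acetaldehyde, the product of ethanol oxidation, and the untreated culture that served as control for both. The table of 2 arrays held a soft agar clone and its own control. The clone was picked for growth in soft agar, that is, without attachment, and then put back on plastic. The series text places the ethanol before the agar, whereas the treatment protocol also speaks of ethanol after it. The exposure of the clone is given as 2.5% for 4 weeks in the sample labels and as 2.5 mM in the series text, and this was not resolved. The control of the clone is labelled as unexposed, yet it also carries the soft agar tag, so the step or steps that separate the pair are not fully known. The clone is 1 clone. All cultures were grown in DMEM/F12 with antibiotics, horse serum, cholera toxin, hydrocortisone, insulin and EGF.

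Mitosis divides the copied chromosomes between daughter cells. Cyclin B with the kinase CDK1 starts it, motors and bundling proteins build the spindle, kinetochores join chromosomes to it, and a checkpoint holds back the anaphase-promoting complex until every kinetochore is attached. Most of these genes are transcribed in late S, G2 and M phase, when the MuvB complex with B-MYB and FOXM1 acts on promoters that carry a cell cycle genes homology region, or CHR, often beside CCAAT boxes. In breast tissue Ki-67, the product of MKI67, is stained as a marker of cycling cells.

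Promoter windows from RefSeq, which run from 250 bases before to 50 bases past the annotated start, were matched for 39 of the 46 genes, all but AURKA, BIRC5, BUB3, PBK, TPX2, TTK and UBE2C. The letters TTTGAA of the CHR, searched on both strands, were in 28 of the 39 windows (71.8%), against 15.4% of 27305 windows of all genes. They began within the last 100 bases of the window in 22 of the 39 (56.4%), against 4.67% of all windows. CCAAT on either strand was in 27 of the 39 (69.2%), against 35.7% of all. Both were in 20 of the 39 (51.3%), against 6.08% of all. The E2F site letters TTTCGCG or TTTGGCG, on either strand, were in 5 of the 39 (12.8%), against 3.22% of all. These are matches of letters and not measured binding sites. Below are windows chosen among genes with CHR letters that could be compared in the clone. MKI67 and ASPM have the largest differences there by the deposited values, although both controls lie under the floor introduced below, and DLGAP5 and CDC20 have the smallest. Capitals mark CHR and CCAAT letters on either strand, and every window is read 5′ to 3′ along the gene.
MKI67: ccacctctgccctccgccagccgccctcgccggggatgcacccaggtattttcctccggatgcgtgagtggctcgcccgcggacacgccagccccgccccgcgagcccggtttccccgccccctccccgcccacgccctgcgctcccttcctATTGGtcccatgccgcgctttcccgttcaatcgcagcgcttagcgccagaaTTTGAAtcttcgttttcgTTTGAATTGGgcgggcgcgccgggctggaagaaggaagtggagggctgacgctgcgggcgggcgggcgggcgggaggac
ASPM: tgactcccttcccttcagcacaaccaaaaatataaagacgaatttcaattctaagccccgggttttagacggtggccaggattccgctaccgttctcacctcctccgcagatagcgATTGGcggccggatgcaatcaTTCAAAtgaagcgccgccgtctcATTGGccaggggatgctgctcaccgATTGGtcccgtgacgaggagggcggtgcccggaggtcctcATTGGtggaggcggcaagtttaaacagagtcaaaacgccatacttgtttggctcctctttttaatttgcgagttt
DLGAP5: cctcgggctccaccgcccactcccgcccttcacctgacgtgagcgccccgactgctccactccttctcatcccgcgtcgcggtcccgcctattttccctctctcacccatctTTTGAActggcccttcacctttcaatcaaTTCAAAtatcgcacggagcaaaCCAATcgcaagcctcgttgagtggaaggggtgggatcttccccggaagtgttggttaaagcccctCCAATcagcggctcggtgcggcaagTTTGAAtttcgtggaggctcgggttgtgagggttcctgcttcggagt
CDC20: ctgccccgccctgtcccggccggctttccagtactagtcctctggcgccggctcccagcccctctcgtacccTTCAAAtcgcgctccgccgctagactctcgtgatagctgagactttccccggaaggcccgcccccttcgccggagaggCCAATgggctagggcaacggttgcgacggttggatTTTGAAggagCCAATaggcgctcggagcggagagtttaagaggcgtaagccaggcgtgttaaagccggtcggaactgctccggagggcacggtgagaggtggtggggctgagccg

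These windows lie, on build GRCh38.p14, at chr10:128126374-128126673 (minus strand) for MKI67, chr1:197146620-197146919 (minus strand) for ASPM, chr14:55191536-55191835 (minus strand) for DLGAP5 and chr1:43358731-43359030 (plus strand) for CDC20. Positions are counted from the annotated start as base 1 and backwards from -1. MKI67 had CHR letters from -47 and from -29, the second of which runs into a reversed CCAAT from -24. ASPM had 1 CHR match, reversed, from -113, among 4 reversed CCAAT matches. DLGAP5 had 3 CHR matches, from -138, -109 and 4. CDC20 had CHR letters from -178 and -65, with CCAAT from -100 and -55. Below control in the clone were 4 genes with a window, AURKB, CDC25B, KIF2C and PTTG1, and 0 of them had CHR letters. Of the genes at least 2-fold higher in the clone, 10 of 12 with a window had CHR letters when values under the floor were raised to it, and of the other genes that could be compared, 13 of 20 did. These shares are a description with no test.

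**Figure D1:**
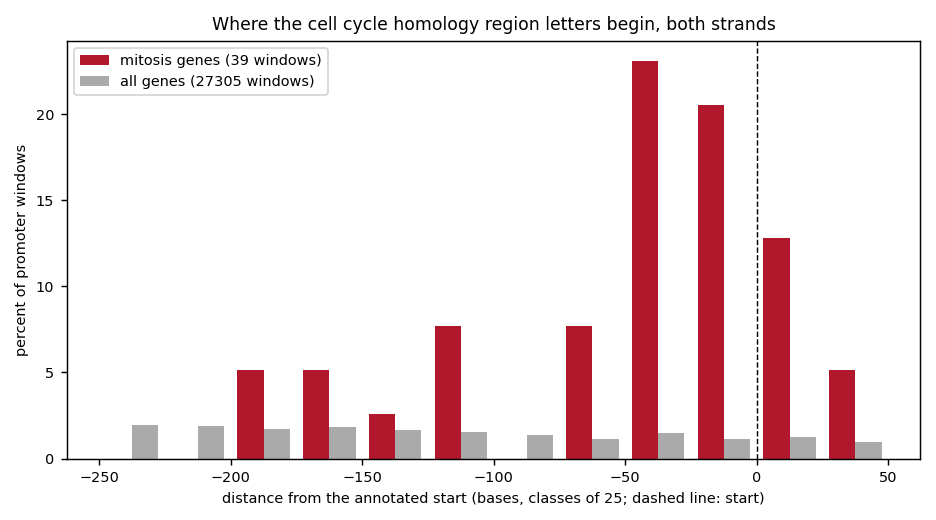
The percent of promoter windows (vertical axis) in which CHR letters begin, on either strand, in classes of 25 bases by distance from the annotated start (horizontal axis), for 39 mitosis genes (red) and for 27305 windows of all genes (grey). The red bars are tallest just before the start, at 23.1% and 20.5%, where the grey bars are at 1.49% and 1.13%.

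Each array held 33297 probes, and median intensities were 70.0 to 70.6 in the table of 3 arrays and 89.9 and 94.0 in the clone and its control. A gene was compared if its brighter array was at or above the median intensity of the table, a floor of 70.2 or 92.0 that was chosen here and does not measure background. Differences below compare single arrays, so the spread between cultures is unknown and no test was possible. Values were equal within 1e-06 on the log2 scale for 43.9% of probes in ethanol and control and for 48.2% in acetaldehyde and control, against 1.02% in the clone and its control. Among the mitosis genes 6, 11 and 0 had such equal values, in the same order of comparisons. Among all genes past the floor, 3459 of 11264, 4244 of 11194 and 24 of 12262 did. The line was checked by its markers. All 6 measured epithelial markers lay above the floor in the 3 arrays of ethanol, acetaldehyde and control, and 4 of 6 did in the clone, against 6 of 6 in its control. Of 3 immune markers, CD14 lay above the floor in all 5 arrays and PTPRC and CD3E in none.

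None of the 42 genes differed from control by 2-fold after ethanol or acetaldehyde, and none by 1.5-fold. Within that narrow range most stood slightly above control in ethanol and fewer did in acetaldehyde. Over all genes past the floor, 2.63% of 11264 passed 2-fold upwards and 2.44% downwards in ethanol. In acetaldehyde 1.03% of 11194 passed it upwards and 0.0536% downwards. At 1.5-fold, 597 of the 11264 genes passed upwards and 576 downwards in ethanol. In acetaldehyde 242 and 46 of the 11194 did. In these bulk samples a larger share of dividing cells and more RNA per dividing cell cannot be told apart. Several epithelial markers differed by more in ethanol than any mitosis gene, and in both directions. CDH1 had 117 in ethanol and 1262 in acetaldehyde, against 1114 in control, EPCAM 85.3 and 479, against 613, and KRT14 105 and 794, against 607. KRT8 had 3068 in ethanol and 2027 in acetaldehyde, against 1474 in control. All 6 summed to an intensity of 8009 in ethanol and 11709 in acetaldehyde, against 10851 in control. The 7 fibroblast markers summed to 540 and 542, with 4 above the floor in each, against 467, with 3 above it. Of these, DCN had 88.1 in ethanol and 98.0 in acetaldehyde, against 31.4 in control, and the others stayed near control. The part of these markers in the differences below was not tested.

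By direction alone, 32 of the 42 genes were higher than control in ethanol, 4 were lower and 6 were equal, where 34.2% of all genes were higher and 35.1% lower. Their median log2 difference was 0.14, against 0.00 over all genes. In acetaldehyde 25 were higher, 6 lower and 11 equal, where 30.2% of all genes were higher and 31.9% lower, and the median was 0.03, against 0.00. Both comparisons share the control array, so they are not separate evidence of direction. After the arrays were quantile-normalised again, which breaks ties, the counts were 34 higher and 7 lower in ethanol, and 24 higher and 18 lower in acetaldehyde. With a lowess trend on brightness removed they were 32 and 10 in ethanol, and 26 and 15 in acetaldehyde. Shares of all genes were not computed under either setting. The shares above include many ties, so they do not serve as a comparison for these counts.

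**Figure D2:**
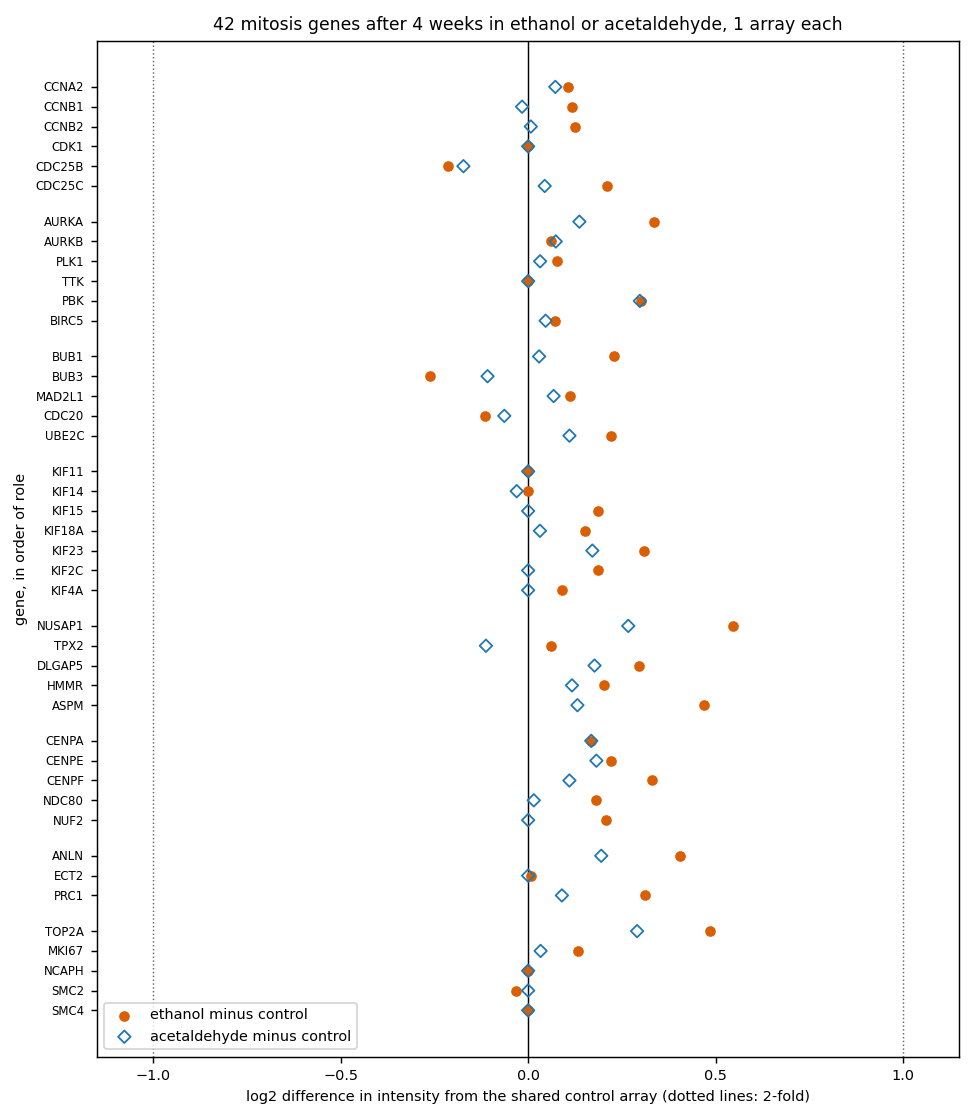
Log2 differences in intensity from the shared control array (horizontal axis) for the 42 named mitosis genes (vertical axis, grouped by role), with ethanol as filled circles and acetaldehyde as open diamonds, 1 array each. All points lie inside the dotted 2-fold lines, from -0.26 for BUB3 to 0.55 for NUSAP1, both in ethanol.

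All 5 spindle assembly genes were above control in ethanol, with a median log2 difference of 0.30. NUSAP1, which bundles microtubules, had the largest difference of all 42 genes, with intensities of 1001 in ethanol and 825 in acetaldehyde, against 685 in control. ASPM, which works at spindle poles, had 552 in ethanol and 437 in acetaldehyde, against 399 in control. DLGAP5, a spindle microtubule protein, had 350 and 322, against 285 in control. In all 3 genes the acetaldehyde array lay between the others. TPX2, which activates Aurora A on the spindle, had a log2 difference of 0.06 in ethanol and -0.11 in acetaldehyde, and HMMR had 0.20 and 0.12.

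All 5 named centromere and kinetochore genes were above control in ethanol, with a median log2 difference of 0.21. CENPF, a kinetochore protein of G2 and M phase, had 1079 in ethanol and 927 in acetaldehyde, against 859 in control. CENPE, a kinetochore motor, had log2 differences of 0.22 in ethanol and 0.18 in acetaldehyde. CENPA, the histone variant that marks centromeres, had 307 in both exposed arrays, against 273 in control. Its probe also carries the symbol SLC35F6 in the annotation of the other array design. A brighter probe, which carries both symbols here and was not used, had 587 in ethanol and 563 in acetaldehyde, against 573 in control. NDC80 and NUF2, which form the rod that grips microtubules, had 0.18 and 0.21 on the log2 scale in ethanol, and 0.02 and 0.00 in acetaldehyde.

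Of the cytokinesis genes, ANLN, which scaffolds the contractile ring, had 1545 in ethanol and 1336 in acetaldehyde, against 1167 in control. PRC1, which bundles the central spindle, had log2 differences of 0.31 and 0.09, in ethanol and then acetaldehyde. ECT2, the exchange factor that activates RhoA at the cell equator, stood near control in both, at 0.01 and 0.00. Among genes of chromosome structure, TOP2A, which untangles DNA, had 1652 in ethanol and 1445 in acetaldehyde, against 1181 in control. The Ki-67 gene MKI67 had 563 and 525, against 513 in control, a log2 difference of 0.13 in ethanol and 0.03 in acetaldehyde. The condensin genes NCAPH and SMC4 had equal values in all 3 arrays, and SMC2 had -0.03 in ethanol. The median log2 difference of the 5 named chromosome structure genes was 0.00 in ethanol.

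In ethanol the kinases and passenger proteins had a median log2 difference of 0.07. The group of cyclins, CDK1 and its phosphatases had 0.11. AURKA, the Aurora kinase of spindle poles, had 781 in ethanol and 681 in acetaldehyde, against 619 in control, while AURKB, the kinase of the passenger complex, had log2 differences of 0.06 and 0.07. PBK, a mitotic kinase, had 0.30 in both exposed cultures. PLK1 had 0.08 and 0.03, and BIRC5, which encodes the passenger protein survivin, had 0.07 and 0.05. TTK, the checkpoint kinase, and CDK1 were equal in all 3 arrays, at intensities of 320 and 912. The cyclins CCNA2, CCNB1 and CCNB2 had log2 differences between 0.11 and 0.13 in ethanol and between -0.02 and 0.07 in acetaldehyde.

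The 7 named kinesin motors had a median log2 difference of 0.15 in ethanol and of 0.00 in acetaldehyde. KIF23, a central spindle motor, had the largest, with 439 in ethanol and 400 in acetaldehyde, against 355 in control. KIF11, which pushes spindle poles apart, was equal in all 3 arrays. KIF15, KIF18A, KIF2C and KIF4A lay between 0.09 and 0.19 in ethanol, and KIF14 at 0.00.

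The genes below control in ethanol were CDC25B, BUB3, CDC20 and SMC2. BUB3, a checkpoint protein, had 640 in ethanol and 712 in acetaldehyde, against 767 in control. CDC25B, a phosphatase that activates CDK1, had 663 and 682, against 769 in control. CDC20, the activator of the anaphase-promoting complex, had 1169 and 1212, against 1266 in control. These 3 genes were below control in both exposed cultures and nearer to it in acetaldehyde. A second, dimmer CDC20 probe had an intensity of 117 in all 3 arrays. CDC25C, the other listed phosphatase, had log2 differences of 0.21 and 0.04, and BUB1, MAD2L1 and UBE2C had 0.23, 0.11 and 0.22 in ethanol.

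Acetaldehyde and ethanol were also set against each other, at doses that differ. No gene differed by 2-fold, where 1.85% of 11221 genes passed that mark upwards in acetaldehyde and 0.526% downwards. By direction, 31 of the 42 genes were lower in acetaldehyde, 5 were higher and 6 were equal. Of all genes 33.5% were lower and 31.4% higher, and 3934 of 11221 were equal. The ethanol array is shared with the comparison of ethanol and control, so the 2 are not separate evidence of direction. The median log2 difference was -0.09, against 0.00 over all genes, and ASPM, at -0.34, was furthest from 0.

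In the soft agar clone the mitosis genes stood mostly above the control of the clone, and several were far above it. Of the 45 named genes, 39 passed the floor. Of these, 16 were higher by 2-fold or more and 0 lower, where 14.7% of 12262 genes passed that mark upwards and 5.83% downwards. In 9 of the 39 genes the control lay under the floor, so their folds are bounds. These 9 passed it only through the clone, so the filter fixed their direction, and they count among the higher genes below. With such values raised to the floor 13 genes were at least 2-fold higher and 0 lower, against 12.0% and 4.98% of all genes, and the median log2 difference was 0.74. At 1.5-fold 26 were higher, against 25.6% of all genes, and 1 lower, against 1867 of 12262 genes. By direction 33 were higher and 6 lower, where 49.0% of all genes were higher and 6232 of 12262 lower. As deposited the median log2 difference was 0.75, against -0.02 over all genes past the floor and -0.17 over all probes. The differences varied widely, with a standard deviation of 0.86 across the 39 genes, and ran from -0.94 to 2.75.

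Markers of cell types differed in the same comparison. The 6 measured epithelial markers summed to an intensity of 9963 in the clone and 22666 in its control, with CDH1 and EPCAM under the floor in the clone and KRT8 and KRT18 slightly above control, and the 7 fibroblast markers to 1684, with 5 above the floor, against 811, with 4 above it. Of the fibroblast markers, COL1A1, COL3A1 and DCN were higher in the clone. COL1A2 had 123 in the clone against 142 in its control, and PDGFRB 103 against 136. LUM and PDGFRA lay under the floor in both arrays. The markers of the endothelium lay under the floor in both arrays. The part of these shifts in the mitosis values was not tested.

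**Figure D3:**
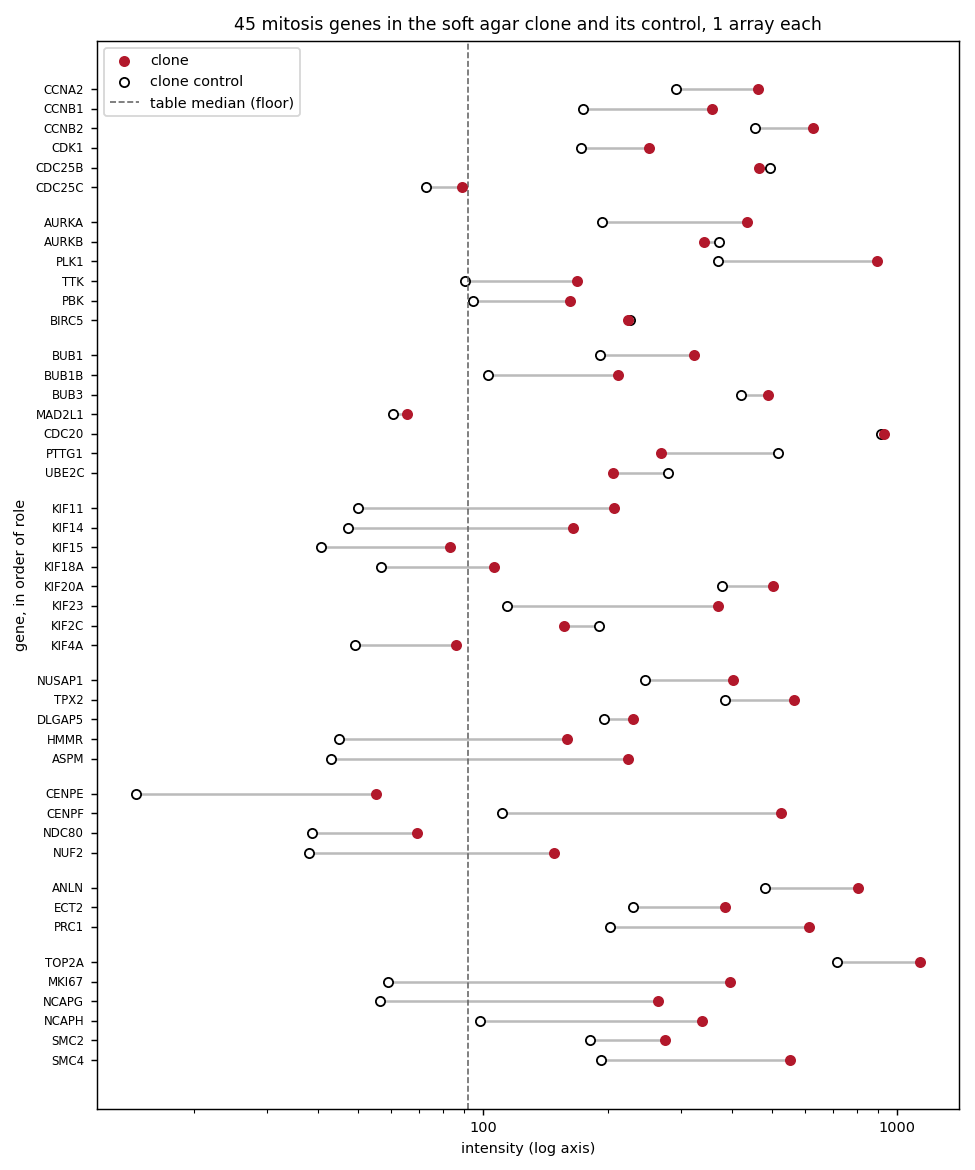
Intensity (horizontal log axis) of the 45 named mitosis genes (vertical axis, grouped by role) in the clone (filled) and in its control (open), 1 array each, joined by a line, with the table median of 92.0 as a dashed line. The clone lies right of its control for most genes, open points left of the dashed line give folds that are bounds, CENPF has the longest line with both points right of it, and left of it for 6 genes, PTTG1 the furthest.

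Genes of chromosome structure were all at least 1.5-fold higher in the clone, 4 of 6 at least 2-fold, with a median log2 difference of 1.65 as deposited and 1.52 with values raised to the floor. MKI67 had an intensity of 396 in the clone and 58.8 in its control, which is under the floor, and so was at least 4.30-fold higher. NCAPG, a condensin subunit, had 264 in the clone and 56.5 in its control, and was at least 2.87-fold higher. NCAPH, the kleisin of the same complex, had 337 in the clone and 98.2 in its control, a 3.44-fold difference. The NCAPG probe also carries the symbol LCORL in the annotation of the other array design, so its value may include that gene. Condensin compacts chromosomes, and its ATPase genes were also above control. SMC4 had 551 against 192, and SMC2 had 275 against 181, each with the clone first. TOP2A was 1.59-fold higher, at 1137 in the clone and 715 in its control.

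Of the kinetochore genes, CENPF and NUF2 passed the floor, NUF2 only through the clone, so its direction was fixed by the filter. CENPF had 524 in the clone and 111 in its control, a 4.71-fold difference. NUF2 had 148 in the clone and 37.9 in its control, and was at least 1.61-fold higher. CENPE and NDC80 lay under the floor in both arrays, with 55.0 and 69.4 in the clone and 14.5 and 38.6 in its control, so no fold is given.

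Kinesin motors differed among themselves. As deposited 3 of 6 were at least 2-fold higher, and 2 of 6 were with values raised to the floor. KIF11 had 207 in the clone and 49.9 in its control, and was at least 2.25-fold higher. KIF23 had 369 in the clone and 114 in its control, a 3.23-fold difference. KIF14, a motor of cytokinesis, had 165 against 47.3, and was at least 1.79-fold higher in the clone. These motors act in pole separation and in abscission. KIF18A, which dampens chromosome movement, had 106 in the clone and 56.6, under the floor, in its control. KIF20A, a cytokinesis motor, had a log2 difference of 0.41, and its probe also carries CDC23 in the annotation of the other array design. KIF2C, which takes microtubule ends apart at centromeres, was lower in the clone by this measure, with 156 against 191. KIF15 and KIF4A lay under the floor in both arrays.

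Among spindle assembly genes, ASPM had 224 in the clone and 42.9 in its control, and was at least 2.44-fold higher. HMMR, a spindle protein and hyaluronan receptor, had 159 in the clone and 44.8 in its control, and was at least 1.73-fold higher. NUSAP1, TPX2 and DLGAP5 had log2 differences of 0.71, 0.56 and 0.23. NUSAP1, which was furthest from control in ethanol, thus lay near the median of the mitosis genes in the clone. Of the cytokinesis genes, PRC1 had 611 in the clone and 202 in its control, a 3.02-fold difference, while ANLN and ECT2 had log2 differences of 0.75 and 0.74.

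Of the mitotic kinases, PLK1, which drives mitotic entry and spindle formation, had 896 in the clone and 370 in its control, a 2.42-fold difference. AURKA had 434 in the clone and 194 in its control, a 2.23-fold difference. AURKB and BIRC5, which belong to one complex, stood near control, with log2 differences of -0.12 and -0.02. A second BIRC5 probe lay under the floor in both arrays. TTK was at least 1.83-fold higher in the clone, and PBK had 162 against 94.6, with the clone first.

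The cyclin and CDK1 group had smaller differences, with a median of 0.55. CCNB1 had 357 in the clone and 174 in its control, a 2.05-fold difference. CCNA2, CDK1 and CCNB2 had log2 differences of 0.66, 0.55 and 0.46, and CDC25B had -0.09. CDC25C lay under the floor in both arrays.

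The checkpoint and anaphase genes held the lowest values of the list. BUB1B, which encodes the checkpoint protein BubR1, had 212 in the clone and 103 in its control, a 2.06-fold difference, and BUB1, a checkpoint kinase, had 322 and 192. BUB3 had a log2 difference of 0.21 and CDC20 of 0.02. PTTG1, the securin that holds back separase, had 268 in the clone and 516 in its control, a log2 difference of -0.94. Its probe also carries the symbol PTTG3P in the annotation of the other array design, so the value may include that copy. The BUB1B probe likewise carries BUB1B-PAK6 there. UBE2C, the ubiquitin-conjugating enzyme of the anaphase-promoting complex, had 206 in the clone and 279 in its control. MAD2L1 lay under the floor in both arrays. In this role group PTTG1, CDC20 and UBE2C were thus near or below control. Of the checkpoint genes, BUB1 and BUB1B stood above control, BUB3 was nearer to it and MAD2L1 could not be compared. Of 16 genes on the list of the anaphase-promoting complex and its regulators, given below, 5 were at least 2-fold higher and 0 lower by as much. Over all genes these shares were 14.7% and 5.83%.

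**Figure D4:**
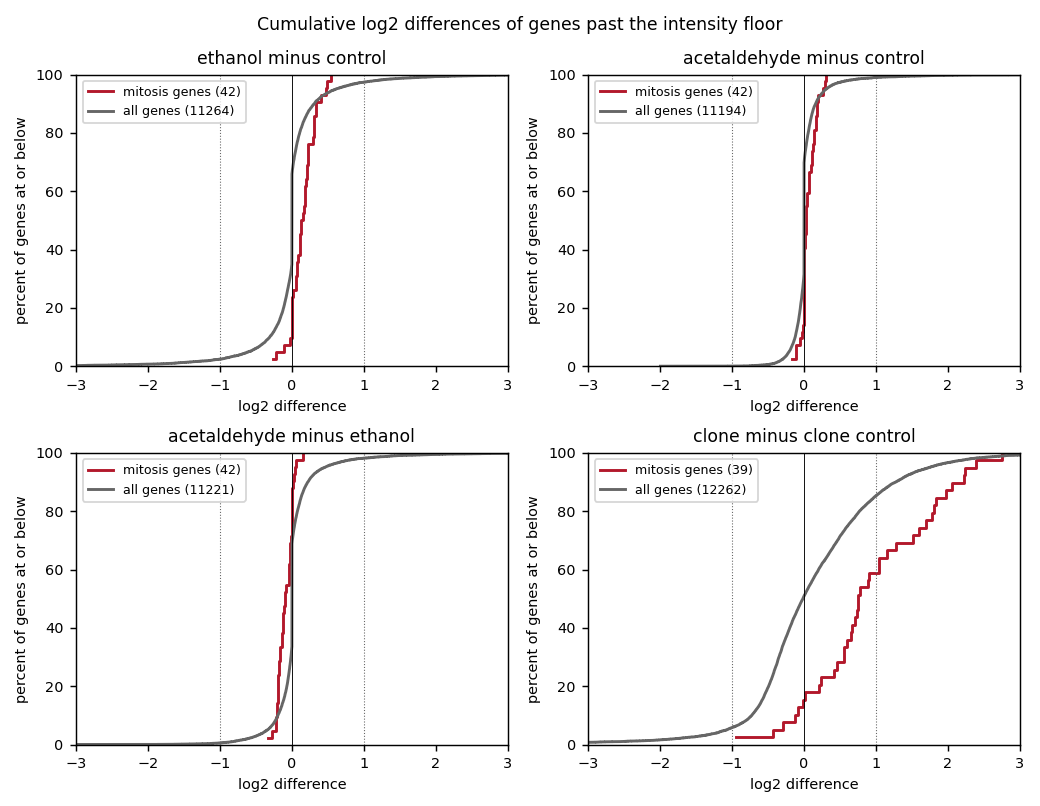
Cumulative percent of genes (vertical axis) at or below each log2 difference (horizontal axis, shown from -3 to 3) for mitosis genes (red) and all genes past the floor (grey) in the 4 comparisons, with dotted lines at 2-fold. In the clone the red line lies right of the grey one, with medians of 0.75 and -0.02, and in the other panels all mitosis genes stay inside the dotted lines.

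The span of a gene, which is the length of its RefSeq record on assembly GRCh38.p14 with introns and not the length of its transcript, moved with the difference in the clone. All 39 genes had a value. Across them the log10 span and the log2 difference had r = 0.55 and rho = 0.53 as deposited, and r = 0.49 and rho = 0.44 with values under the floor raised to it. Across 12251 genes of the same pair of arrays the values were r = 0.25 and rho = 0.29 as deposited, and r = 0.26 and rho = 0.29 raised. Genes share the same 2 arrays and are not independent replicates, so no p is given. With values raised, 0 of the 6 mitosis genes with spans under 10 kb were at least 2-fold higher, against 3.93% of all genes in that class. Of the 7 from 10 to under 20 kb 2 were, against 8.83%, and of the 12 from 20 to under 40 kb 6 were, against 12.3%. Of the 13 from 40 to under 80 kb 5 were, against 17.5%, and the 1 gene from 80 kb was not, against 20.5%. The classes were set after the values were seen, and the part of gene span in the mitosis values was not tested.

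**Figure D5:**
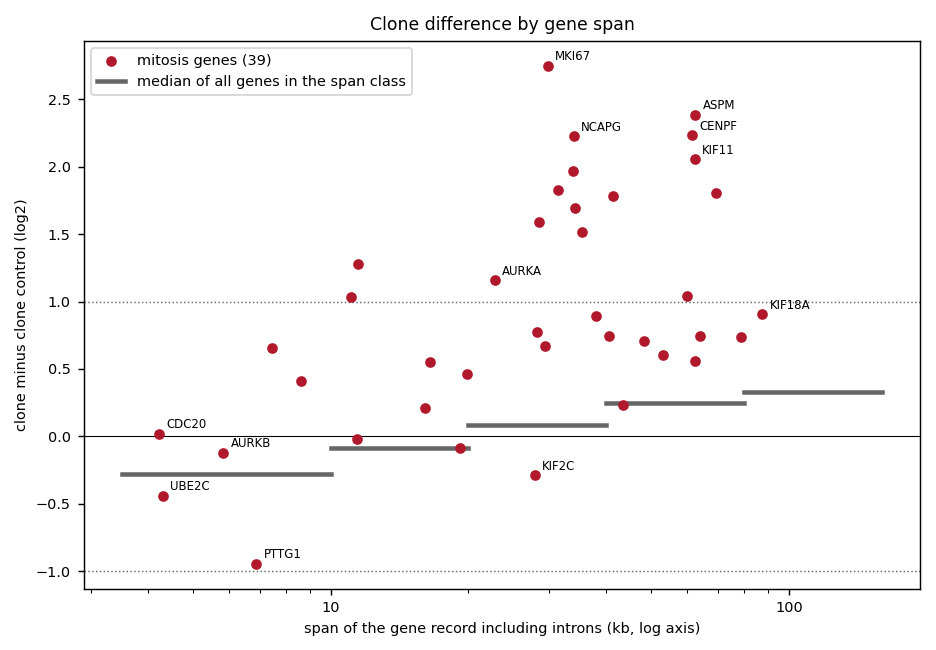
Log2 difference of the clone from its control (vertical axis) by the span of the gene record in kb (horizontal log axis), for the 39 mitosis genes past the floor (red), with the median of all genes in each span class as grey bars, the outer classes of which extend beyond the axis. The grey bars climb from -0.28 in the shortest class to 0.33 in the longest, and the red points of the class from 20 to under 40 kb have a median of 1.56. Differences are as deposited, and that median is 1.01 with values raised to the floor.

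Other cell cycle genes were taken from 9 lists, to be read beside the 14.7% of all genes that passed 2-fold upwards in the clone and the 5.83% that passed it downwards. Of 57 further mitosis genes past the floor in the clone, 18 passed 2-fold upwards and 1 downwards, and the median log2 difference was 0.61. With values raised to the floor 11 passed upwards and 1 downwards, and the median was 0.28. ZWILCH, a checkpoint protein of the kinetochore, was at least 5.74-fold higher, with 528 in the clone and 88.4 in its control. TRIP13, which turns over checkpoint complexes, had 702 in the clone and 153 in its control, a 4.60-fold difference. The lower gene was CKS2, a CDK1 binding protein, with 1042 in the clone and 2188 in its control. In ethanol 0 of 63 reached 2-fold, and their median was 0.05. SGO2, which protects centromeric cohesion, and PIMREG had the largest ethanol differences of that list, 0.69 and 0.72, and were named after their values were seen.

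Of 16 genes of the anaphase-promoting complex and its regulators, 5 were at least 2-fold higher in the clone and 0 lower, with a median of 0.67. By direction 10 were higher and 6 lower, where 49.0% of all genes were higher. The subunit genes ANAPC5, CDC27 and CDC16 had log2 differences of 1.97, 1.95 and 1.84, while CDC26 and CDC23 had -0.82 and -0.77. Of 9 cohesin genes, whose product holds sister chromatids together, 4 were at least 2-fold higher and 0 lower, with a median of 0.92, led by WAPL, which releases cohesin, at 438 in the clone and 94.2 in its control. In ethanol 0 of 15 and 0 of 9 reached 2-fold. Of 10 tubulin genes 3 were at least 2-fold higher in the clone, among them TUBA1A at 722 against 200.

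Among 20 transcription factor genes of the cell cycle, 3 were at least 2-fold higher in the clone and 0 lower, a share near the 14.7% of all genes, and the median was 0.54. TFDP1, the dimer partner of E2F factors, had 2912 in the clone and 752 in its control. FOXM1 had 219 in the clone and 108 in its control, a 2.04-fold difference, and MYBL2, which encodes B-MYB, had a log2 difference of 0.75. In ethanol FOXM1 and MYBL2 had 0.26 and -0.33, and 0 of 22 reached 2-fold. DNA replication genes were also above control in the clone, 13 of 28 by at least 2-fold, and 0 were lower by as much, with a median of 0.97. With values raised to the floor 10 of 28 were, and the median was 0.76. In ethanol their median was 0.00, against 0.14 for the mitosis genes, with 12 of 30 higher by any amount and 13 lower.

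CDK inhibitors and brakes on mitosis had a median of -0.83 in the clone, with 2 of 12 at least 2-fold lower, against 5.83% of all genes, and 0 higher. SFN, the 14-3-3 sigma gene that holds cells in G2, had 386 in the clone and 6367 in its control, a log2 difference of -4.04, and in ethanol 703 against 2131 in control. SFN is also an epithelial gene. GADD45A, a growth arrest gene, had 366 in the clone and 897 in its control. Of 10 cyclins and kinases of G1 and S phase, 1 was at least 2-fold higher in the clone, CCNE2, which encodes a cyclin E. As a check, 2 of 9 housekeeping genes passed 2-fold upwards too, TBP at 498 against 167 and PGK1 at 2458 against 891, with a list median of 0.41. The median of 0.75 for the mitosis genes stands beside that value as well as beside the -0.02 of all genes.

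The ethanol and clone comparisons share no array. Over the 35 genes past the floor in both, 21 were higher in both, 1 was lower in both and 7 went opposite ways, against 25.4%, 19.7% and 24.5% of 10503 genes. The log2 differences had r = 0.25 and rho = 0.26 across these genes, against r = 0.59 and rho = 0.37 across all of these, as a description of 2 pairs of arrays. Most mitosis genes were higher in each comparison taken alone, so a large share higher in both says little about agreement gene by gene. Genes with a clone control under the floor could only be higher in the clone. Of the 35 genes, those in none of the counts above were equal in ethanol and control. Levels cannot be set across the tables, which were treated as normalised separately on different array designs. Within each table, 0 of 42 genes lay under the floor in the untreated control and 15 of 45 in the control of the clone, against 6 of 45 in the clone, and the array design and the cultures cannot be told apart in that contrast of controls. The share of all genes under the floor in a single array was not computed. In both the clone and its control 6155 of 18417 genes lay under it, against 6 of 45 mitosis genes. In both ethanol and control 6694 of 17958 did, against 0 of 42.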

How the data were processed

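RNA from 5 MCF12A cultures was measured on 5 arrays, 1 per group. The values deposited hold linear intensity, made by the authors with RMA per the submitters' processing notes, with no version given in the sources used here. Each array design has its own table, and differences were taken only within a table.

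Log2 of each deposited intensity was computed. Probes with exactly 1 symbol (19181 and 19460) were named through the platform annotation and RefSeq, the brightest probe per gene was kept, and a difference was used where the higher array reached the table median. Where the dimmer array lay under that floor, the fold is a bound, the brighter array divided by the floor. No test was possible with 1 array per group. The calculations were tested on simulated data. Python 3.11.15, pandas 2.3.3 and numpy 2.4.6 were used, and statsmodels 0.14.6 for lowess.

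The genes and lists were chosen with earlier results of these data known. All 46 genes are accounted for. Other genes are, by rule, up to 4 per list and direction, by the size of the clone difference, and MYBL2, PIMREG, SGO2 and TRIP13 were named outside that rule, after their values were seen.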

Additional observations from a re-analysis of the deposited data

How the results depend on the processing

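In ethanol, in acetaldehyde and between them, 0 of 42 mitosis genes reached the threshold under each of the 9 alternatives, the 1.5-fold threshold included, and each median stayed within 0.1 on the log2 scale, a tolerance set here in the absence of replicates. In the clone 16 genes were at least 2-fold higher. This count was 26 at a 1.5-fold threshold and lay between 13 and 18 under the other alternatives, with 13 where values under the floor were raised to it, since the folds of KIF14, HMMR and NUF2 are then bounded under 2-fold. The count of lower genes, 0, was 1 at 1.5-fold and 1 after quantile normalisation. The median of 0.75 was 0.91 after centring on the median of all probes and lay between 0.65 and 0.77 under the other alternatives. The use of only genes named in both tables, and the counts by direction, were added after the data were seen. No paired analysis was possible because each group has 1 array. The number of arrays limits the precision of every value.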

Other observations

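Some listed genes share a probe with another gene in one table and were left out of the comparisons there. The probe of BUB1B and the read-through BUB1B-PAK6 had intensities of 334 in ethanol and 285 in acetaldehyde, against 295 in control. The probe of KIF20A and its neighbour CDC23 had 879 in ethanol and 733 in acetaldehyde, against 604 in control. The brighter probe of NCAPG and LCORL had 606 in ethanol and 559 in acetaldehyde, against 522 in control. The probe of PTTG1 and PTTG3P had 414 in ethanol and 441 in acetaldehyde, against 442 in control, so the securin probe was not above control in ethanol, in acetaldehyde or in the clone. The probe of CENPA and SLC35F6 had 334 in the clone and 270 in its control.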
